A study of Mus musculus with 8 samples.

Results

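Mfsd2a and 9 genes of phosphatidylcholine synthesis and remodelling were followed in lactating mammary glands with and without the transcription factor Th-POK. The 10 genes are Mfsd2a, which brings lysophosphatidylcholine into the cell, the choline and ethanolamine pathway genes Chka, Chkb, Pcyt1a, Pcyt2, Chpt1 and Cept1, the methyltransferase gene Pemt, and the acyltransferase genes Lpcat1 and Lpcat3. They were taken by name, through the transcript accession of each array probe, and 9 of the 10 had a probe among the 18749 genes that could be named on the array. Lpcat1 had no matched probe and is not analysed here. The genes were picked with their differences between the genotypes already known, so these differences are described below and carry no test.

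Glands of the No. 4 pair came from female C57/Bl6 dams on lactation day 1. They gave 4 wild-type (WT) samples and 4 that lacked Th-POK (knockout, KO), each taken as 1 dam. The RNA of each gland sample was labelled with Cy3 and hybridized to its own Agilent mouse array, on which the brightness of a probe is the measurement, and all values are log2 signals after quantile normalization of the 8 arrays. The knockout was not restricted to the mammary epithelium, and Th-POK, encoded by Zbtb7b, is also required for CD4 T cells. The WT arrays shared 1 slide and the KO arrays another slide, and slide and genotype cannot be told apart.

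Phosphatidylcholine is the most abundant phospholipid of most animal membranes and coats lipid droplets and milk fat globules. Cells make it from choline by phosphorylation, activation to CDP-choline and transfer to diacylglycerol, by methylation of phosphatidylethanolamine, or by putting a fatty acid back on lysophosphatidylcholine. The lactating alveolar cell uses large amounts of membrane, since each fat droplet leaves the cell wrapped in it.

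Promoter sequences are shown for Mfsd2a and Pemt, which were among the 3 genes lowest in KO relative to WT, and for Pcyt1a, whose genotype means were equal. Each line is the 250 bases before an annotated start, 5′ to 3′ on the strand of the gene, from RefSeq (GRCm38.p6). Capitals mark matches on either strand to 4 motifs, the CCAAT box, the GC box (searched as GGGCGG), the E-box (searched as CACGTG) and a form of the sterol response element (searched as TCACNCCAC). Mfsd2a lies at chr4:122961189-122961438 (minus strand), the window of the first annotated start of Pemt at chr11:60040189-60040438 (minus strand), and that of the first annotated start of Pcyt1a at chr16:32430671-32430920 (plus strand).
Mfsd2a: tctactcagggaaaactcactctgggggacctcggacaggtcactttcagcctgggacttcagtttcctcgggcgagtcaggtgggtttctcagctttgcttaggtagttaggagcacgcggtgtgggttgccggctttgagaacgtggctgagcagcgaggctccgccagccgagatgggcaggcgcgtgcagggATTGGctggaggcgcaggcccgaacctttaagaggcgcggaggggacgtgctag
Pemt: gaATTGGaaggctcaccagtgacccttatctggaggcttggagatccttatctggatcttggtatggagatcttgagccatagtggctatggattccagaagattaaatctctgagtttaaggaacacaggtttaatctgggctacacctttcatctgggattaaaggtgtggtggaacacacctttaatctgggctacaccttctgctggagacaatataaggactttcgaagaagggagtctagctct
Pcyt1a: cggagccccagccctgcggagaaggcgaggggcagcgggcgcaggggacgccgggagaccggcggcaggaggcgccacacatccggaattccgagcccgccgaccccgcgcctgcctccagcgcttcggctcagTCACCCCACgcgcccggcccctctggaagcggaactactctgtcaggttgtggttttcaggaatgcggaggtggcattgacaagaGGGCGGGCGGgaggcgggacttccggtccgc
The Mfsd2a window held 1 match to the CCAAT box and none to the other 3 motifs. The Pemt window also held 1 match to the CCAAT box and none to the others. The Pcyt1a window held 1 match to the sterol element, which began 116 bases before the start, and 2 overlapping matches to the GC box. Of the 10 genes, 9 had a window, Lpcat1 among them, 14 windows in all. Pcyt2 had no entry and was not searched. Of the 14 windows, 2 held the sterol element (both of Pcyt1a), 6 the CCAAT box, 9 the GC box and 0 the E-box. The 2 Pcyt1a windows overlap and hold the same single site, 116 and 215 bases before their starts. Thus 1 of the 9 genes with a window had the sterol element, and counts of windows can hold a site more than once. Among all 32851 windows of this length, 1.05% held the sterol element, 33.8% the CCAAT box, 32.7% the GC box and 6.02% the E-box. A match is a description of the letters and not evidence of binding.

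The arrays carried the tissue and genotype of their labels. The mean log2 signal of 8 luminal and milk genes lay between 16.61 and 16.82 on all 8 arrays. Zbtb7b was detected above background on every WT array and on none of the KO arrays (at least 81.5-fold lower). The share of probes well above background was 66.8% to 75.3% over the 8 arrays, and no spot was saturated. Each gene below is given by its brightest probe, and all 16 probes of the 9 genes were well above background on all 8 arrays.

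Mfsd2a stood apart from the other 8 genes. Mfsd2a encodes a sodium-dependent carrier of lysophosphatidylcholine, known above all for moving docosahexaenoic acid across the endothelium of the brain. Its log2 signals were 11.72, 13.14, 12.41 and 12.05 on WT arrays 1 to 4, and 7.32, 9.25, 7.65 and 9.91 on KO arrays 1 to 4. The genotypes did not overlap, with 1.81 between the lowest WT array and the highest KO array. The mean was 12.33 ± 0.61 in WT and 8.53 ± 1.25 in KO (SD, n = 4 each), a difference of -3.80 (SE 0.59), or 13.9-fold lower in KO. The KO arrays formed a high and a low pair, with arrays 2 and 4 more than a log2 unit above arrays 1 and 3. Between arrays of the same number the KO signal differed by -4.41, -3.90, -4.76 and -2.14 log2 units in turn. The number is only that of the label and is not stated to join a WT to a KO sample. Pairs below are pairs in this sense. Zbtb7b and Mfsd2a were the 2 genes of 14137 tested with a KO signal lower by at least this much.

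**Figure D1:**
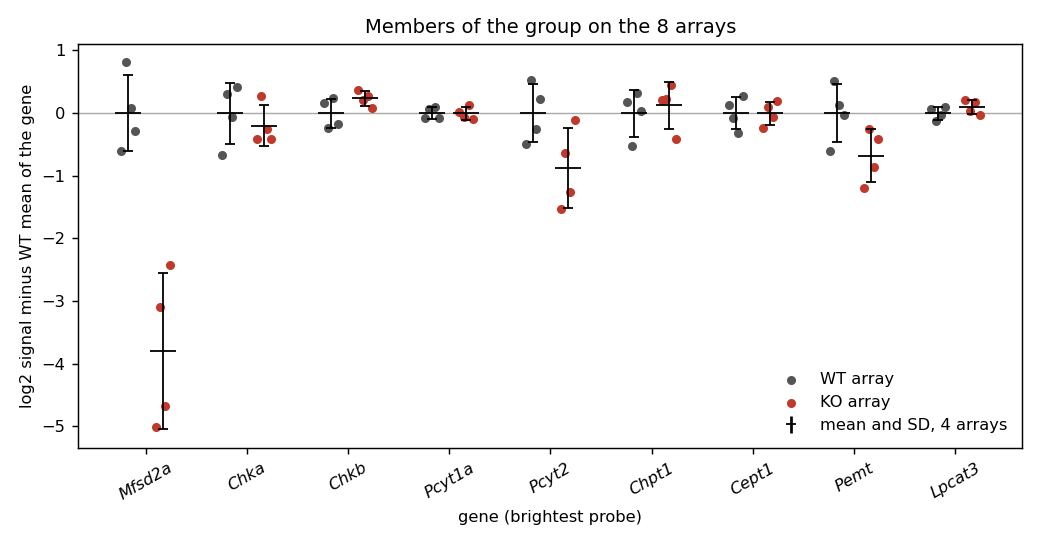
Log2 signal of the brightest probe of each of the 9 genes on every array, minus the WT mean of that gene; points are arrays (4 WT, 4 KO), bars the mean and SD. The Mfsd2a KO arrays lie 2.42 to 5.02 log2 units below the WT mean, clear of all WT arrays, whereas both genotypes overlap for the other 8 genes.

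Of the 9 genes, 1 (Mfsd2a) was called by the limma fit over all genes (Benjamini-Hochberg adjusted p under 0.05). The same fit called 16.5% of the 14137 genes, 8.96% of them lower in KO and 7.53% higher. Genotypes did not overlap for 1 of the 9 genes, again Mfsd2a, and for 24.1% of all genes (12.9% lower and 11.1% higher in KO). The KO mean was lower for 6 of the 9 and higher for 3, and the median difference of the 9 was near 0 (-0.0018, against -0.0237 over all genes). These counts use the same contrast by which the genes were picked.

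Pcyt2 and Pemt were the next lowest. Pcyt2 makes CDP-ethanolamine, the activated head group of phosphatidylethanolamine. Its log2 signals were 13.35, 14.38, 13.59 and 14.07 in WT, and 12.32, 13.22, 12.59 and 13.74 in KO. KO array 4 lay above WT arrays 1 and 3, so the genotypes overlapped, and the other 3 KO arrays lay below every WT array. The means were 13.85 ± 0.46 and 12.97 ± 0.64 (SD, n = 4 each), a difference of -0.88 (SE 0.34), or 1.84-fold. The KO signal was lower in 4 of 4 pairs of arrays with the same number, with differences from -1.16 (arrays numbered 2) to -0.33 (arrays numbered 4). The second probe of Pcyt2 differed by -1.08, with KO array 4 (11.18) again above WT array 1 (10.92).

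Pemt encodes the enzyme that methylates phosphatidylethanolamine to phosphatidylcholine, a route best known from liver. Its signals were 8.97, 10.09, 9.71 and 9.55 in WT, and 8.39, 9.32, 8.72 and 9.17 in KO. WT array 1 lay below KO arrays 2 and 4, and the other 3 WT arrays lay above every KO array. The means were 9.58 ± 0.47 and 8.90 ± 0.42 (SD, n = 4 each), a difference of -0.68 (SE 0.28), or 1.60-fold. Again 4 of 4 pairs were lower in KO, with differences of -0.58, -0.77, -0.99 and -0.39, and the second probe differed by -0.75. In size, the Pcyt2 difference ranked 727 and the Pemt difference 1174 among genes lower in KO. A fit with the replicate number as a block called 3 of the 9 genes, Mfsd2a, Pcyt2 and Pemt, and 19.5% of all genes. Without KO array 4 the unblocked fit called Mfsd2a and Pcyt2 (16.1% of all genes), and without WT array 1 it called Mfsd2a and Pemt (21.7% of all genes). In both cases the array left out was one that lay inside the range of the other genotype, and nothing is read from the added call.

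**Figure D2:**
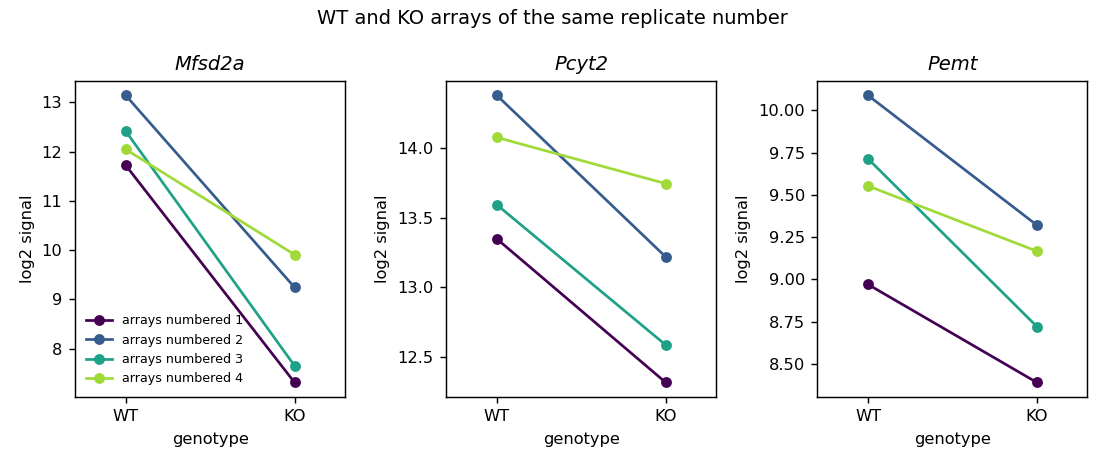
Log2 signals of Mfsd2a, Pcyt2 and Pemt, with a line joining the WT and the KO array of the same replicate number; each panel has its own scale. All 12 lines slope down from WT to KO, and the line of arrays numbered 4 has the smallest drop in each panel (differences of -2.14, -0.33 and -0.39 log2 units). The number is only that of the label and is not stated to join a WT to a KO sample.

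The enzymes of the choline branch lay closer to 0. Chka and Chkb phosphorylate choline in its first step. The WT signals of Chka were 10.42, 11.39, 11.02 and 11.50, and those of KO were 10.68, 11.35, 10.83 and 10.66. They overlapped throughout, with means of 11.08 ± 0.49 and 10.88 ± 0.32 (SD, n = 4 each). The KO signal of Chka was lower in 3 of 4 pairs, and its probes differed by -0.20 and -0.24. Chkb went the other way, at 11.20, 10.81, 11.28 and 10.88 in WT and 11.41, 11.26, 11.31 and 11.13 in KO. WT arrays 1 and 3 lay within the KO range and WT arrays 2 and 4 below it. The Chkb means were 11.04 ± 0.23 and 11.28 ± 0.12 (SD, n = 4 each), and KO was higher in 4 of 4 pairs. Both Chkb probes differed alike, by 0.23 and 0.25, which is the largest increase in KO among the 9 genes and about 1.18-fold.

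Pcyt1a encodes the enzyme that activates phosphocholine to CDP-choline, the step that sets the rate of the choline pathway in many cells. Its signals had the narrowest WT range among the 9 genes, 8.94, 9.08, 9.11 and 8.95 in WT and 9.04, 8.96, 9.16 and 8.92 in KO. The means were 9.02 ± 0.09 and 9.02 ± 0.10 (SD, n = 4 each), and its second probe differed by 0.05. Its difference had a standard error of 0.10, and it was not tested against that of Pcyt2, its counterpart in the ethanolamine branch.

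Chpt1 and Cept1 carry out the last transfer to diacylglycerol. Chpt1 was 13.44, 12.72, 13.58 and 13.28 in WT and 13.47, 13.48, 13.71 and 12.84 in KO, with WT array 2 and KO array 4 the low array of each genotype. Its brightest probe differed by 0.12 and the other 2 probes by -0.01 and -0.02, all smaller than the spread between arrays of a genotype (SD 0.37 in both for the brightest). Cept1, which also makes phosphatidylethanolamine, had means of 11.05 ± 0.26 and 11.05 ± 0.19 (SD, n = 4 each). Its KO arrays all lay inside the WT range of 10.73 to 11.32.

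Lpcat3 puts polyunsaturated fatty acids back on lysophosphatidylcholine, the lipid that Mfsd2a imports. Its signals were 11.59, 11.40, 11.50 and 11.63 in WT and 11.73, 11.57, 11.71 and 11.51 in KO. KO arrays 1 and 3 lay above every WT array, and the other 2 within the WT range. The means of 11.53 ± 0.11 and 11.63 ± 0.11 (SD, n = 4 each) differed by 0.10, and KO was higher in 3 of 4 pairs.

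**Figure D3:**
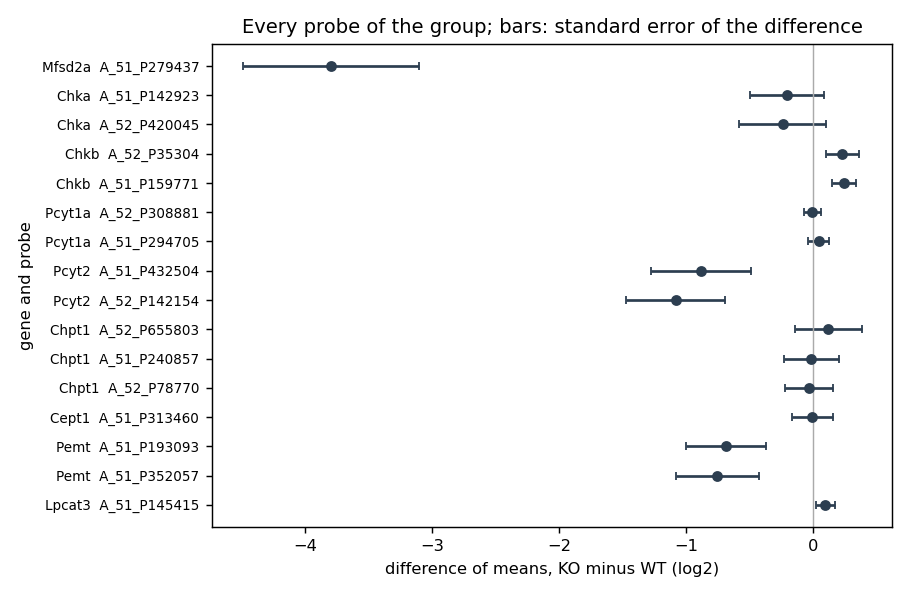
Difference of means, KO minus WT (log2), for each of the 16 probes of the 9 genes, named by gene and probe; bars are the standard error of the difference from the SDs of 4 and 4 arrays. Probes of the same gene lie close together, as for Pcyt2 (-0.88 and -1.08), Pemt (-0.68 and -0.75) and Chkb (0.23 and 0.25), and Mfsd2a has 1 probe.

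Within each genotype, the arrays stood in much the same order for Mfsd2a, Pcyt2 and Pemt. Among KO arrays Mfsd2a and Pcyt2 had the same order, 4, 2, 3 and 1 from the highest, and Pemt had 2, 4, 3 and 1. Among WT arrays Mfsd2a and Pemt had the same order, 2, 3, 4 and 1, and Pcyt2 had 2, 4, 3 and 1. With each gene's genotype means taken away, the correlation with Mfsd2a over the 8 arrays was 0.92 for Pcyt2 and 0.86 for Pemt. It was -0.93 for Lpcat3, whose signals spanned 0.24 log2 units in WT and 0.23 in KO. For the others it was 0.35 for Chka, 0.32 for Cept1, -0.33 for Pcyt1a, -0.58 for Chkb and -0.72 for Chpt1. The points share their arrays, dams and slides, and these correlations are a description. Over all genes, arrays 1 with 3 and 2 with 4 also deviated together across genotypes (mean correlation 0.24). The mean was -0.24 for the remaining combinations that do not share a number. How many of all genes correlate this strongly with Mfsd2a was not counted, so nothing particular to these genes is read from the values.

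**Figure D4:**
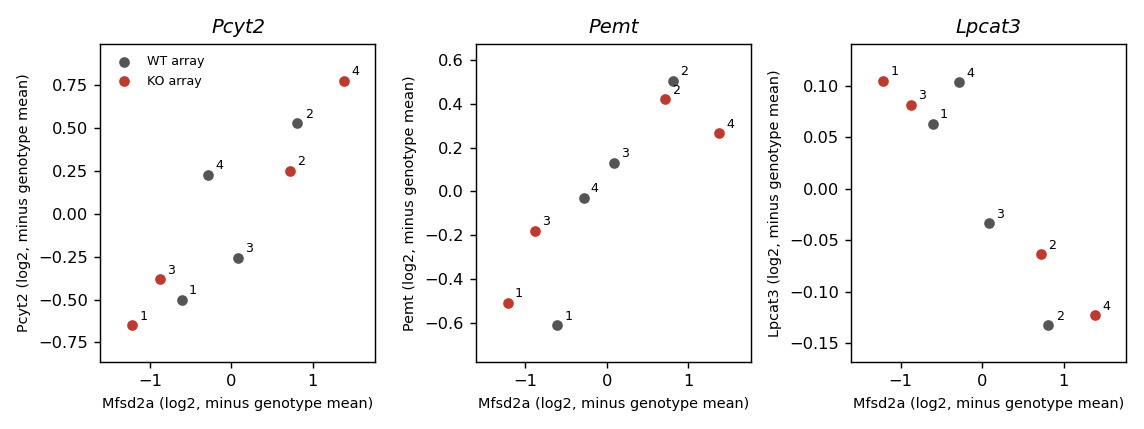
Log2 signals of Pcyt2, Pemt and Lpcat3 against those of Mfsd2a on the 8 arrays, after subtraction of each gene's mean in its genotype; numbers at the points are replicate numbers and the vertical scales differ. Pcyt2 and Pemt rise with Mfsd2a (r = 0.92 and 0.86), and Lpcat3 falls with it (r = -0.93) over a much smaller range.

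Across all 8 arrays, the 5 genes closest to Mfsd2a by Pearson correlation included Slc7a1 (r = 0.99), a carrier of cationic amino acids, then Ankrd13a, Nanos1 and Jtb (0.99 for each). Slc7a1 was 10.38, 10.86, 10.56 and 10.26 in WT and 8.78, 9.49, 9.06 and 9.74 in KO, so that its KO arrays 2 and 4 lay above KO arrays 1 and 3, as for Mfsd2a. The most opposite genes were Clk3, Cemip2, Cpe, Zfp521 and Ctdspl2 (-0.99 for each). With the genotype means subtracted, the 5 closest included Zfp335 (0.99), Suox (0.98), Shmt2 (0.98) and Abhd11 (0.98). Zfp335 had nearly equal means in WT (10.17) and KO (10.19). None of the 9 genes was among those closest to Mfsd2a. By Spearman's rho, 30 genes tied at 1, and 1 of the 5 genes chosen by it was also among the 5 closest by Pearson's r.

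Markers of other cells were set beside these values, since fewer cells of a type and less RNA per cell cannot be told apart in whole glands. The mean log2 signal of 5 endothelial markers was 10.01 to 10.41 in WT and 10.12 to 10.47 in KO, with 0 of the 5 called. Basal, macrophage and B cell lists also had 0 genes called, against 16.5% of all genes, and their ranges overlapped. The neutrophil list was 8.02 to 8.90 in WT and 10.51 to 11.73 in KO, with 3 of 5 genes called higher (Ngp, Camp and Ltf). Ngp and Camp were well above background on no WT array, whereas Ltf had a WT mean of 16.27. The mean of this list is therefore not read as neutrophils alone. S100a9 (2.19, adjusted p = 0.0566, limma) and S100a8 (0.49, adjusted p = 0.357, limma) were higher but not called. Adipocyte markers were 12.85 to 13.62 in WT and 13.36 to 13.66 in KO (2 of 6 called higher, Plin1 and Cfd). Adipoq, Fabp4 and Retn were also higher and Lep was lower (-0.73), none of them called. T cell markers were 5.89 to 6.88 in WT and 5.82 to 6.12 in KO (2 of 4 called lower, Cd3e and Cd4). Cd3g (-0.31) and Cd8a (-0.21) were also lower, neither of them called. Of the 8 luminal and milk genes, 1 (Krt18, 0.67) was called higher. Krt8 (0.46) was also higher, and Lalba (-0.45) and Elf5 (-0.35) were lower, none of them called. Csn1s1, Csn2, Csn3 and Wap differed by at most 0.07. Quantile normalization gives the brightest probes nearly fixed values, and Wap was 18.475 on each of KO arrays 1, 3 and 4. Small differences of such bright genes are therefore not read as unchanged RNA. The part of these cells in the Mfsd2a, Pcyt2 and Pemt values was not tested.

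Around the 9 genes, 68 other genes of phosphatidylcholine metabolism, with 6 factors known to control genes of the pathway among them, were listed from general knowledge, and 60 of the 66 on the array could be tested. Of the 60, 12 were called (20%), 4 lower and 8 higher in KO, against 16.5% of all genes, and the median difference was 0.04 (-0.02 over all genes). Of the 6 factors 3 were called, and of the other 54 genes 9 (16.7%). No gene was called among the 3 other choline and ethanolamine enzymes, where Etnk2, an ethanolamine kinase, differed by 0.72 (adjusted p = 0.0683, limma) and Selenoi, which makes phosphatidylethanolamine from the product of Pcyt2, by -0.09 (adjusted p = 0.636). None of the 3 genes of phosphatidylserine and phosphatidylethanolamine synthesis was called. Among them the phosphatidylserine synthase gene Ptdss2 differed by -0.48 (adjusted p = 0.0554, limma) and the decarboxylase gene Pisd by -0.21 (adjusted p = 0.125). For Ptdss2 the adjusted p was 0.0369 without WT array 1 and 0.0704 to 0.138 without any other array. The mean of its probes differed by -0.25 (adjusted p = 0.182, limma). None of 5 genes of choline oxidation and methyl supply was called. The smallest p belonged to Aldh7a1, a dehydrogenase of betaine synthesis, at 0.70 (adjusted p = 0.0651, limma, and 0.0349 with the replicate block). Next was Ahcy, which clears the by-product of the Pemt reaction, at -0.39 (adjusted p = 0.128, and 0.0473 without KO array 4). With each array left out in turn, the adjusted p was 0.0549 to 0.142 for Aldh7a1 and 0.0473 to 0.257 for Ahcy.

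**Figure D5:**
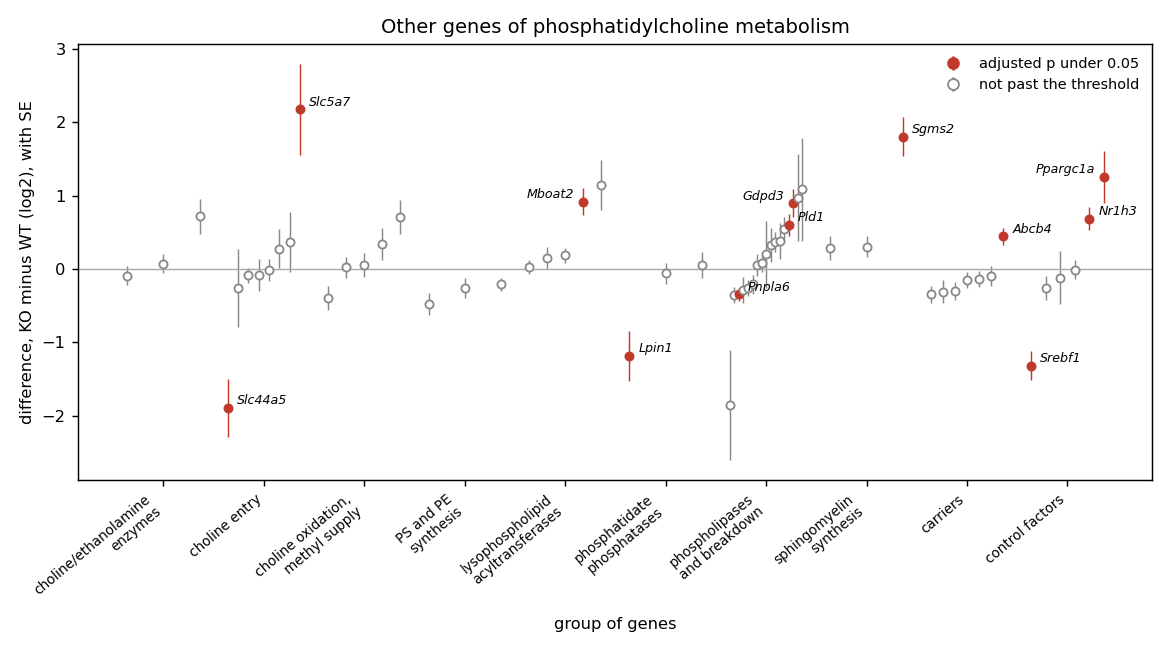
Difference of KO minus WT (log2) with its standard error for the 60 other genes tested, in 10 groups (PS, phosphatidylserine; PE, phosphatidylethanolamine); filled points have a limma adjusted p under 0.05 and carry names. The 12 filled points are spread over 7 of the 10 groups, 4 below and 8 above 0, and the point of Slc44a5 (-1.89) includes KO signals that were not above background.

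Sgms2 and Srebf1 were the called genes that stayed past the threshold with every array left out in turn. Sgms2, a sphingomyelin synthase that takes its head group from phosphatidylcholine, rose by 1.80 (SE 0.26, adjusted p = 0.00880, limma), from 5.61 ± 0.42 in WT to 7.41 ± 0.43 in KO (SD, n = 4 each), and normexp background correction gave a smaller difference of 0.99 (adjusted p = 0.0105, limma). Srebf1, which encodes a factor controlling lipid synthesis genes, fell by 1.31 (SE 0.19, adjusted p = 0.00880). Mboat2, a lysophospholipid acyltransferase, rose by 0.92 (SE 0.18, adjusted p = 0.0187), and missed the threshold without KO array 1 (0.0509) or 3 (0.0577). All of the 8 higher genes called and 3 of the 4 lower ones had genotypes that did not overlap, and Lpin1 was the exception. Genotypes did not overlap for 19 of the 60 genes tested, called or not, and for 24.1% of all genes. The calls come from the same values, so nothing further is read from the overlap.

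The other 9 calls each depended on several arrays, and the values in brackets are limma adjusted p with all arrays. Among choline carriers, Slc44a5 (0.0208) was well above background on no KO array and was at least 1.15-fold lower. It was lost without WT array 2 (0.0576), KO array 1 (0.0543) or KO array 3 (0.0578), and normexp background correction gave a difference of -0.20 in place of -1.89 (adjusted p = 0.168). Slc5a7, the high-affinity choline carrier of neurons, rose by 2.17 (0.0459). It was well above background on 3 of 4 WT arrays, and without the fourth, WT array 2, the difference was 1.45 (0.00470). Normexp correction gave 1.38 (0.0131). It kept its call only without WT array 1 or 2 (0.0553 to 0.109 without each of the other 6). Lpin1, a phosphatidate phosphatase that supplies diacylglycerol, fell by 1.18 (0.0483), overlapped between genotypes through KO array 2, and kept its call only without that array. Without each of the other 7 its adjusted p was 0.0569 to 0.126. Ppargc1a, a coactivator of oxidative genes, rose by 1.26 (0.0454) and kept its call only without WT array 4 (0.0631 to 0.109 without each of the other 7). Nr1h3, the sterol receptor LXR alpha, rose by 0.68 (0.0251) and was lost without WT arrays 2 or 3 or KO arrays 1, 2 or 3 (0.0517 to 0.0746).

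Among genes of breakdown and export, Pld1, a phospholipase that splits phosphatidylcholine, rose by 0.60 (limma adjusted p = 0.0352). It kept its call without WT array 1 or 4 and was lost without each of the other 6 (0.0564 to 0.0946). Gdpd3, a lysophospholipase D, rose by 0.89 (0.0216) and was lost without WT arrays 2 or 3 or KO arrays 1, 2 or 3 (0.0521 to 0.0581). Pnpla6, which removes fatty acids from phosphatidylcholine and its lyso form, fell by 0.34 (0.0361; 0.0566 with the replicate block) and kept its call only without WT array 1 (0.0520 to 0.0886 without each of the other 7). Abcb4, which flips phosphatidylcholine outward across the membrane, rose by 0.44 (0.0333) and was lost without WT arrays 2 or 4 or KO arrays 1, 2 or 3 (0.0620 to 0.0894).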

How the data were processed

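RNA of No. 4 mammary glands was measured on 8 arrays of 1 colour, 4 WT and 4 KO, grouped by the sample labels. For each array the authors deposited scanner output (Agilent Feature Extraction 10.7, per the submitters' processing notes), whose processed intensities were already background-subtracted, and a table of log2 values that the authors had quantile-normalized in GeneSpring, used here as an alternative. Control spots and spots marked as outliers were left out. The log2 intensities were quantile-normalized between arrays, the spots of a probe averaged, and probes named through their accession with RefSeq's table (GRCm38.p6): 26728 of 27094 probes with an mRNA accession matched. A probe entered if the scanner software put it well above background on every array of WT or of KO, the brightest probe stood for a gene, and 14137 genes were fitted with limma 3.58.1 in R 4.3.3 (two-sided, Benjamini-Hochberg, called at an adjusted p under 0.05). The scripts were tested on simulated data. A gene well above background on no array of a genotype has a lower limit for its fold, taken against the lowest signal well above background on each dim array.

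Named in the text are all members, other pathway genes that were called (otherwise up to 2 of a group with the smallest p), and the 5 genes most and least like Mfsd2a. 1 of these is not reported here. Marker genes named beside a count were picked after their values were seen. Members and lists were chosen with earlier results of these data known. The paper describes 4 independent replicate sets but does not say that a number joins a WT to a KO array. For arrays of the same number, deviations from the genotype means correlated between WT and KO at 0.22, 0.16, 0.30 and 0.28 (mean 0.24). Arrays 1 with 3 and 2 with 4 correlated across genotypes as well (0.11 to 0.34, mean 0.24), against a mean of -0.24 for the remaining combinations, so the correlations do not single out the numbers. Since every same-number pair was above 0.1, the number was tried as a block. Other alternatives were scaling to the 75th percentile, normexp background correction (offset 50, on median spot signals), the authors' table, no filter on dim probes, the mean of probes, each array left out, and the methods' t-test. The labels give 4 numbered samples a genotype and name no dams. That each sample is 1 dam is inferred from the paper's wording of independent replicates, and p-values measure the spread between these 8 arrays. The number of arrays limits the precision.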

Additional observations from a re-analysis of the deposited data

Results flagged for a closer look

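Among the 27 genes checked in both genotypes (54 groups of 4 arrays), 2 groups held an array far from the other 3, where chance alone gives about 1 in 20. Slc5a7 had a log2 signal of 3.82 on WT array 2 and of 6.67 to 6.77 on the other WT arrays, and on that array it was not well above background. Ahcy had a log2 signal of 6.92 on KO array 4 and of 6.34 to 6.44 on the other KO arrays. None of the 9 members had such an array.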

How the results depend on the processing

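The differences of Mfsd2a (-4.26 to -3.39), Pcyt2 (-1.14 to -0.66) and Pemt (-0.89 to -0.51) kept their direction with each array left out and under the alternatives run. The replicate block called 3 members in place of 1 (and 2762 of all genes in place of 2331), and leaving out arrays gave 1 to 2 members called and 1 to 2 with genotypes that did not overlap. Over all genes, 1266 of the 2331 called were lower, and 515 to 3070 were called with 1 array left out (249 to 1682 lower), lowest without KO array 3, and 1389 (796 lower) by the methods' t-test after adjustment. Of the other pathway genes, 12 were called, 2 to 14 with 1 array left out (1 to 5 lower, 1 to 9 higher). The mean of probes left 2 called lower, and the methods' t-test 5 called higher. Among single named genes outside the members, 68 values lost and 4 gained their call, and none reversed; the block changed Aldh7a1 and Pnpla6 only. By Spearman's rho, 1 of the 5 genes taken as closest to Mfsd2a was shared. Since 30 genes tied at a rho of 1, which 5 were taken was arbitrary, and nothing is read from this count. Scaling moved the median of all genes from -0.02 to -0.05. The causes were not tested. With 4 arrays a genotype, small differences of a member such as Chkb cannot be told from the spread, and Slc44a5 in KO was at background.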
